A study of Mus musculus with 144 samples.

Results

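Bulk RNA from 500 sorted cells of the adult mouse subventricular zone was compared between 7-week-old and 5-week-old mice. The sort took cells that express Tlx, the nuclear receptor encoded by Nr2e1, and the labels call the sorted cells neural stem cells and give the bulk pools no stage. These pools make up 11 of the 144 libraries of the series: 2 at 7 weeks, titled A2_2_R1 and A2_3_R1, and 9 at 5 weeks, in 3 title sets of 3 libraries each (A3_1, A3_2 and A3_3, libraries R1 to R3). They were chosen by title and labelled age, with no measured value involved. The other libraries are single cells and 2 bulk pools of 7 months, whose values are given beside the results. No treatment, mutation, strain, sex or animal is named for any of these groups, and the expression table holds a row named gfp next to the mouse genes.

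The subventricular zone lines the lateral ventricles and keeps making neurons in adult rodents. Quiescent stem cells there resemble astrocytes, activated stem cells and transit-amplifying progenitors divide, and their neuroblast daughters migrate to the olfactory bulb. Tlx keeps adult neural stem cells self-renewing, so a sort on its expression can collect cells along this path. The choroid plexus and the ependyma lie against the same ventricle wall.

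Expression was in TPM, a level corrected for transcript length and scaled to a common sum, and differences are on the log2(TPM + 1) scale, where low levels are compressed. The libraries of a title set were averaged first, so the comparison rests on 3 values at 5 weeks and 2 at 7 weeks. The bulk libraries held 13497 to 14221 genes at 1 TPM or more, and read depth is not known from TPM. Libraries within a 5-week set correlated at 0.920 to 0.954. Over genes, the median SD was 0.39 between libraries of a set and 0.34 between set means, against a median absolute age difference of 0.39. Xist and 4 Y-linked genes were above 0 together in all 11 pools, so each pool mixed both sexes. Xist was at 21.4 and 27.1 TPM at 7 weeks, below all 9 libraries of 5 weeks (31.7 to 56.5 TPM; limma adjusted p = 0.521), and Y-linked Ddx3y at 16.7 and 38.9 TPM against 27.8 to 50.3 TPM. The part of the sex mix in the age differences was not tested. Nothing says that the sets are separate animals, so p-values measure only the spread between these sets.

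The title sets differed from each other in a way that bears on every age difference below. Nr2e1 (ENSMUSG00000019803) had levels of 399 to 536 TPM in set A3_1, 194 to 288 TPM in A3_2 and 66.7 to 105 TPM in A3_3. At 7 weeks it was 136 TPM in A2_2 and 65.1 TPM in A2_3. The level thus went down with the second number in the title at both ages, and the gfp row did the same, with 769 to 1506, 550 to 924 and 158 to 320 TPM at 5 weeks and 540 and 138 TPM at 7 weeks. Neuroblast genes ran the other way: Dcx, a microtubule-binding protein of migrating neuroblasts, was at 11.98 to 22.5 TPM in A3_1, 93.3 to 125 TPM in A3_2 and 241 to 257 TPM in A3_3. Gfap, the astroglial filament, was at 61.8 to 96.8 TPM in A3_1 and 7.42 to 22.5 TPM in the other 6 libraries of 5 weeks. The stem cell genes Nr2e1 and Sox2 were thus present in all 11 pools, as the label has it, and the pools of set numbers 2 and 3 also held neuroblast transcripts. There was no 7-week pool of set number 1, so the 5-week side alone holds a pool with this profile. What the set number stands for is not in the labels. The called genes and the gene lists are therefore also read within set number 2 (A2_2 against A3_2) and set number 3 (A2_3 against A3_3), where 1 library of 7 weeks stands against 3 of 5 weeks with no test.

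**Figure D1:**
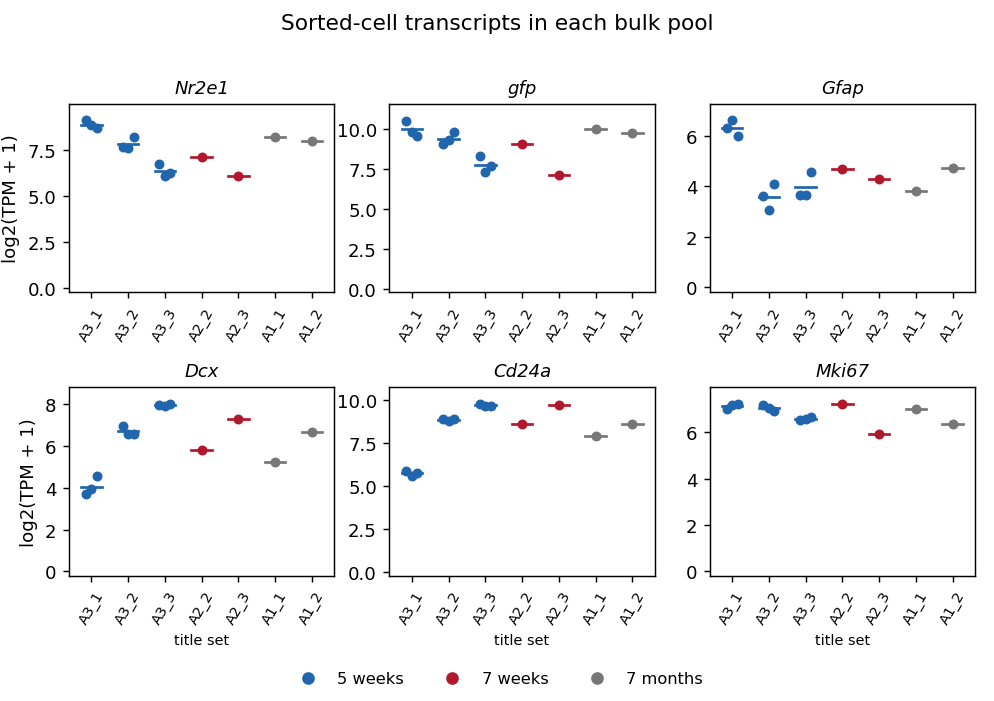
Level of Nr2e1, gfp, Gfap, Dcx, Cd24a and Mki67 as log2(TPM + 1) in each bulk library (points), by title set, with the mean of each set as a line. Among the 5-week sets Nr2e1 and gfp are highest in A3_1 (399 to 536 TPM for Nr2e1) and Dcx and Cd24a lowest, and these 4 rows differ between A2_2 and A2_3 in the direction of A3_2 and A3_3, while Gfap does not.

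Over 13668 genes tested with limma on the title sets of all 3 ages, 3 genes were higher at 7 weeks (0.0219% of those tested) and 2 were lower (0.0146%) at an adjusted p under 0.05, or 0.0366% in both directions. They were transthyretin (Ttr), the processed pseudogenes Gm13394 and Gm5514 on the higher side, and Eno1b and the processed pseudogene Gm4735 on the lower side. The 3 pseudogenes fall outside the naming rule, which leaves out predicted gene models, and were named after their values were seen. At an unadjusted p under 0.05 there were 382 genes higher and 860 lower. With the set number as a term in the limma fit, none of the 13668 genes passed (1334 at an unadjusted p under 0.05). Leaving out set A2_2, A2_3 or A3_3 left none of the 5 past the limma threshold (1923, 1151 and 985 genes at an unadjusted p under 0.05), and leaving out A3_1 or A3_2 left 3 and 2 called, all of them higher at 7 weeks.

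With so few genes past the threshold, the ages were further described by ranges. With 2 sets against 3, some genes separate by the order of the sets alone. The counts below are therefore not counts of genes that change with age. The 2 sets of 7 weeks both lay above the 3 sets of 5 weeks for 1564 genes (11.4%) and both below for 2361 genes (17.3%). Quantile normalization turned this split to 2076 above and 1947 below. Both 7-week libraries lay above all 9 libraries of 5 weeks for 442 genes (3.23%) and below all 9 for 955 (6.99%). Within set numbers, the 7-week library lay above the 3 libraries of its number in both numbers for 1589 genes (11.6%) and below for 2374 (17.4%). The 2 ways of separating the ages shared 922 genes on the higher side (59.0% of the 1564 and 58.0% of the 1589) and 1526 on the lower side (64.6% and 64.3%). Both use the same libraries, so part of this sharing is built in and it adds no support.

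The genes on the 2 sides differed in composition. The GC content of the longest transcript had a median of 53.0% among the 1564 genes above, 44.9% among the 2361 below and 49.3% over all tested genes with an annotation. Transcript length had medians of 2556, 3779 and 3281 bases. Across 13012 genes, which are not independent replicates and share the libraries, the age difference had a Spearman correlation of 0.35 with GC content, and of 0.42 and 0.25 within set numbers 2 and 3. The part of GC content and length in the results below was not tested beyond an alternative that removes their trend, whose medians are given beside the lists they moved most.

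Of the 5 genes past the threshold, 4 are near-identical copies of abundant metabolic genes, and so is BC002163, the named gene with the next largest gap after Ttr on the higher side. Gm13394 copies glyceraldehyde-3-phosphate dehydrogenase (Gapdh), Gm5514 copies lactate dehydrogenase B (Ldhb), Gm4735 and Eno1b copy alpha-enolase (Eno1), and BC002163 copies Ndufs5, a subunit of respiratory complex I. A read from such a pair can match both rows, and RSEM, the authors' quantifier, divides it between them by estimated shares, so levels of a copy and its parent are uncertain. The sequences show how little separates the rows. Each pair below is a stretch of 90 bases in the coding part of the parent, chosen because it holds the most differences away from its ends of any such stretch, with capitals at the bases that differ.

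Gm13394: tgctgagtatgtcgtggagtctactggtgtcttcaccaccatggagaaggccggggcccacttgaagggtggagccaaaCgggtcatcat
Gapdh: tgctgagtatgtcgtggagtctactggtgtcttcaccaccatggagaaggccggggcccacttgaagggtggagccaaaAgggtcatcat
Gm5514: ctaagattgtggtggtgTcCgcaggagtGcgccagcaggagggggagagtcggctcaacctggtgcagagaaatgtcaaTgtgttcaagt
Ldhb: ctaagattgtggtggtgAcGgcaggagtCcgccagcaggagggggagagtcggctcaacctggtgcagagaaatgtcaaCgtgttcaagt
Gm4735: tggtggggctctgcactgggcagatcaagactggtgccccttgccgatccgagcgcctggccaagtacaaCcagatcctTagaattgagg
Eno1: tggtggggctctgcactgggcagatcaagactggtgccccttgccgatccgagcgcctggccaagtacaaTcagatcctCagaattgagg

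These windows come from the GENCODE M21 transcripts on build GRCm38, whereas the authors' values were made on mm9. The Gm13394 window lies at chr2:28934254-28934343 on the minus strand, in a single-exon pseudogene, and its difference is A80C (the parent's base, the position counted from 1 at the 5′ end of the window, then the copy's base). It is the 1 mismatch between Gm13394 and Gapdh over 1000 aligned bases (99.9% identity). The Gm5514 window lies at chr19:21937648-21937737 on the plus strand, with A18T, G20C, C29G and C80T, out of 20 mismatches in 1002 bases (98%). The Gm4735 window lies at chr2:80838294-80838383 on the plus strand, with T71C and C80T, out of 5 mismatches in 1302 bases (99.62%). Eno1b aligned to Eno1 over 1652 bases with 9 mismatches (99.45%), and BC002163 to Ndufs5 over 319 bases with 2 (99.37%).

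The Gapdh copy had the largest difference of all. Gm13394 (ENSMUSG00000083773) was at 753 TPM in A2_2 and 436 TPM in A2_3, while its 9 libraries of 5 weeks ran from 0 to 23.1 TPM with a median of 0, and both 7-month pools were at 0. The ages do not overlap, by a wide margin, and the difference was 7.81 (SE 0.69, limma adjusted p = 0.0168), with 6.99 and 7.27 within set numbers 2 and 3. Gapdh itself was at 1712 and 1272 TPM at 7 weeks against 1173, 1437 and 1951 TPM (lowest, median and highest) at 5 weeks, so its levels overlap. The sum of the 2 rows was 2465 and 1708 TPM at 7 weeks against 1185 to 1975 TPM at 5 weeks, where A2_3 lies inside the range of all 5-week libraries. Within set numbers the sum does not overlap, whereas Gapdh alone does in both. The sum was 2465 TPM in A2_2 against 1273 to 1975 TPM in A3_2, and 1708 TPM in A2_3 against 1185 to 1367 TPM in A3_3.

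The Ldhb copy was listed at 0 in all 9 libraries of 5 weeks, so it passed the filter on low values only through the older pools. Gm5514 (ENSMUSG00000045104) reached 26.4 TPM in A2_2, 20.2 TPM in A2_3 and 104 and 133 TPM in the 7-month pools, a 7-week difference of 4.59 (SE 0.30, limma adjusted p = 0.00486). Ldhb was at 1095 and 1113 TPM at 7 weeks against 623, 729 and 1207 TPM at 5 weeks, and the sum of both rows, 1121 and 1133 TPM, also lies inside the 5-week range. At both older ages the copy thus held a small part of this sum. At 5 weeks only set A3_1 reached the 7-week level. Within set numbers the sum does not overlap. It was 1121 TPM in A2_2 against 655 to 796 TPM in A3_2, and 1133 TPM in A2_3 against 623 to 729 TPM in A3_3. Ldhb alone also lay above both 5-week sets of the same numbers, and just above the A3_1 mean of 1081 TPM.

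The enolase copies ran in the other direction. Gm4735 (ENSMUSG00000064193) was at 1.07 and 1.44 TPM at 7 weeks against 17.4, 32.9 and 45.6 TPM at 5 weeks, and at 0 in both 7-month pools, a difference of -3.85 (SE 0.30, limma adjusted p = 0.0109). Eno1b (ENSMUSG00000059040) was listed at 0 in both 7-week and both 7-month pools and at 10.7, 13.6 and 26.3 TPM at 5 weeks, with a fitted difference of -4.07 (SE 0.34, limma adjusted p = 0.0134). Eno1, the glycolytic enzyme of most cells, had 419 and 653 TPM at 7 weeks against 219, 375 and 444 TPM at 5 weeks (difference 0.67, SE 0.41, limma adjusted p = 0.651). With Gm4735 added, the enolase sum was 420 and 654 TPM against 261 to 490 TPM, and the ages overlap over all libraries. Within set numbers neither Eno1 nor this sum overlaps. The sum was 420 TPM in A2_2 against 302 to 413 TPM in A3_2, and 654 TPM in A2_3 against 439 to 490 TPM in A3_3. Eno1b is not part of this sum, and was at 0 in A2_2 and at 20.1 TPM in A3_2_R2, the library with 413 TPM. Adding it puts A3_2_R2 above A2_2, so the sum with both copies overlaps in set number 2.

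BC002163 (ENSMUSG00000081824) did not pass the test, but its ages do not overlap either. It was at 223 and 109 TPM at 7 weeks against 14.2, 28.9 and 44.3 TPM at 5 weeks, and at 3.43 and 0 TPM in the 7-month pools (7-week difference 2.59, SE 0.63, limma adjusted p = 0.504). Ndufs5 overlapped between the ages, with 357 and 255 TPM against 235 to 373 TPM. Pseudogenes made up 3.6% of the tested genes, 28.6% of the 56 genes whose gap between the ages was over 1 on the higher side and 5.8% of the 120 such genes on the lower side. The gap is the distance on the log2 scale between the nearest set values of the 2 ages.

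**Figure D2:**
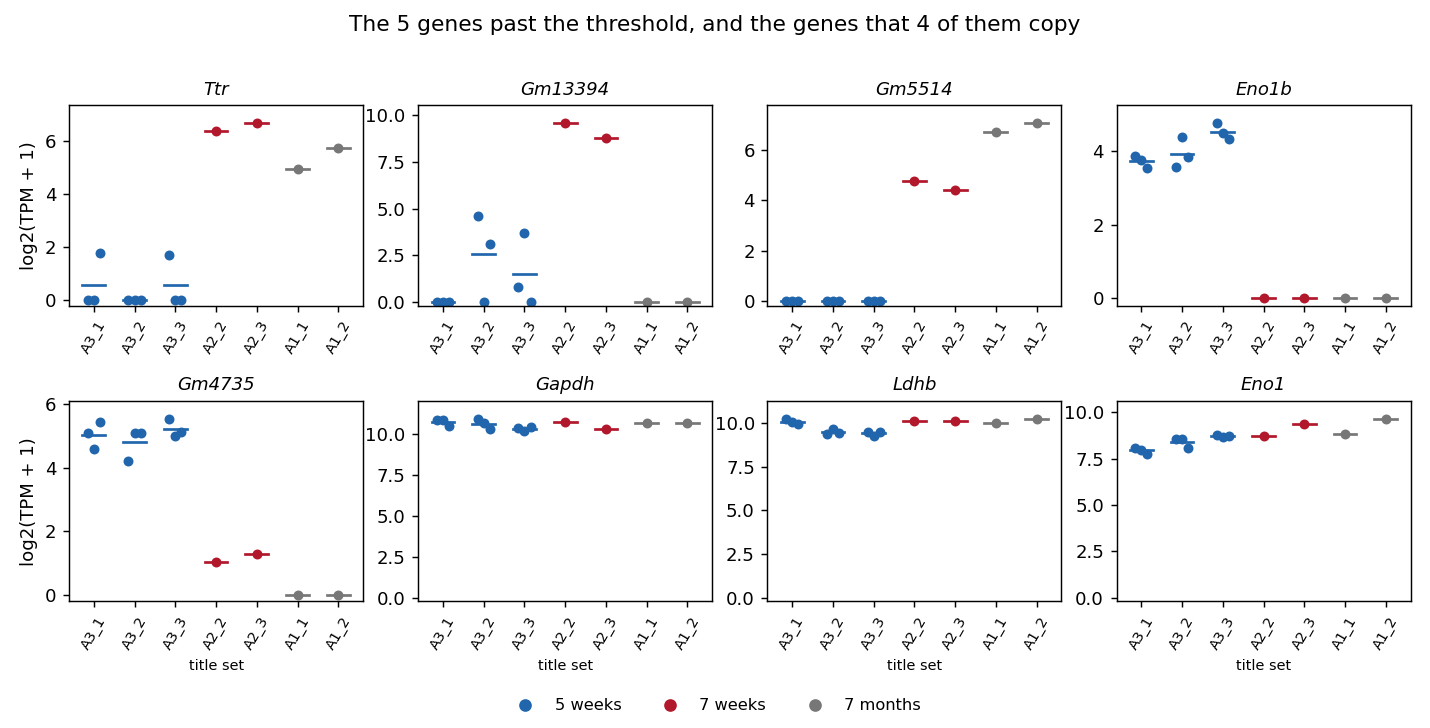
Level as log2(TPM + 1) of the 5 genes past the threshold and of Gapdh, Ldhb and Eno1 in each bulk library (points), by title set, with set means as lines. Ttr, Gm13394 and Gm5514 are high in both 7-week pools (82.4 and 100 TPM for Ttr), and Eno1b and Gm4735 are high in all 9 libraries of 5 weeks. The 3 parent genes overlap between the ages over single libraries. By set means, Ldhb is higher in both 7-week sets than in every 5-week set. Within set numbers Ldhb and Eno1 are higher at 7 weeks, and Gapdh overlaps.

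Ttr was the only called gene that is not a copy in this sense. It encodes transthyretin, the carrier of thyroid hormone that choroid plexus epithelium secretes into the cerebrospinal fluid. Ttr (ENSMUSG00000061808) was at 82.4 TPM in A2_2 and 100 TPM in A2_3. At 5 weeks, 7 of the 9 libraries were at 0 and the other 2 at 2.24 and 2.42 TPM, in A3_3 and A3_1. The ages do not overlap, with a difference of 6.13 (SE 0.37, limma adjusted p = 0.00486) and 6.38 and 6.09 within set numbers 2 and 3. The 7-month pools lay between, at 29.95 and 51.8 TPM.

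The other choroid plexus genes were low in every pool. Of the 25 list members found in the table, 7 passed the filter on low values, and 11 were at 0 in both 7-week pools. The epithelial folate receptor Folr1, the chloride channel protein Clic6 and the transcription factor Lmx1a were at 0 in all 13 bulk libraries, and the anti-ageing co-receptor Kl and the potassium channel subunit Kcne2 were at 0 in both 7-week pools. Without Ttr the list summed to 69.4 and 107 TPM at 7 weeks, against 45.1 to 81.3 TPM at 5 weeks, which overlap over all sets. Within set numbers these sums do not overlap, with 69.4 TPM in A2_2 against 45.1 to 59.9 TPM in A3_2 and 107 TPM in A2_3 against 70.6 to 81.3 TPM in A3_3. Of the 7 tested members, Ttr included, 2 lay above and none below between sets, and 4 above and none below within set numbers. Over all tested genes, 11.4% and 11.6% lay above in these readings. The 2 between sets were Ttr and Igfbp2, whose 5-week means on the log2 scale, 0.39 and 0.64, are under the filter of 1. They thus passed the filter only through the older pools, and the count is no support. The median difference was 0.47 (1.02 and 0.95 within numbers). Igfbp2, a binding protein of insulin-like growth factors that stands on the same list, was at 3.67 and 7.46 TPM at 7 weeks against 0, 0.54 and 2.68 TPM at 5 weeks (difference 2.01, SE 0.66, limma adjusted p = 0.517). Enpp2, which makes lysophosphatidic acid, overlapped over all sets, with 18.9 and 46.4 TPM against 4.31 to 37.7 TPM. In bulk, fewer cells of a type and less RNA per cell cannot be told apart.

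The labelled single cells of the same ages include title set A2_1, which has no bulk pool. In these cells, Ttr was at 1 TPM or more in 6 of 39 cells of 7 weeks (15.4%, exact binomial 95% interval 5.9 to 30.5%). It was in 0 of 48 cells of 5 weeks, which allows a share of up to 6.25% at 3 counts, or 7.4% by the exact interval. Both limit cells at 1 TPM or more, not cells that express the gene. The intervals cover counting error only, and cells of a set are not replicates. The 6 cells were 2 of 15 in A2_1, 3 of 12 in A2_2 and 1 of 12 in A2_3. At 10 TPM or more there were 4 cells and none in A2_3, where the mean over cells was 0.098 TPM against 86.9 TPM in A2_1 and 118 TPM in A2_2, although the A2_3 pool was at 100 TPM. Gm5514 was at 1 TPM or more in 12 of 39 cells of 7 weeks (30.8%) and 2 of 48 of 5 weeks (4.2%). Gm13394 gave 11 of 39 (28.2%) and 3 of 48 (6.2%). The shares of the enolase copies depended on the level counted as detected. At 1 TPM or more Gm4735 was detected in 14 of 39 cells of 7 weeks (35.9%) and 9 of 48 of 5 weeks (18.8%), and Eno1b in 8 of 39 (20.5%) and 1 of 48 (2.1%), with 7 of these 8 cells in A2_3. At 10 TPM or more Gm4735 was detected in 0 of 39 and 2 of 48 cells and Eno1b in 0 of 39 and 1 of 48. Their mean level over cells was 1.33 against 5.98 TPM for Gm4735 and 0.66 against 3.17 TPM for Eno1b, the last from 1 detected cell, and whether the shares differ between ages was not tested.

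The rest of the 12 named genes per direction with the largest gaps had no adjusted p under 0.05, and their values are ranges. Ggt1, Larp1b and Rnase1, like Nlrc5, had 5-week means under the filter of 1 (0.85, 0.69 and 0.69 on the log2 scale). They passed it only through the older pools, so their separation is no support. On the higher side, the 12th gene, Rnf135, had a gap of 1.16, and the next outside, Igfbp2 and Rnf19b, had 1.15 and 1.13. On the lower side, the 12th gene, Hist2h3b, had a gap of -1.63, and the next outside, Dbpht2 and Arl4a, had -1.60 and -1.59. Of the 24 genes, Ggt1 and Ggct act on glutathione, Nlrc5 in antigen presentation and Ndufaf6 in mitochondria. These groups were named after the values were seen and are supported by no test.

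Enzymes that handle glutathione and amino acids stood on both sides. Ggt1 (ENSMUSG00000006345), the membrane enzyme that starts the breakdown of extracellular glutathione, was at 7.45 and 7.15 TPM at 7 weeks against 0, 0.38 and 5.18 TPM at 5 weeks, with a difference of 2.20 (SE 0.31, limma adjusted p = 0.263). Ggct (ENSMUSG00000002797), a cytosolic cyclotransferase that acts on the gamma-glutamyl products of that pathway, was listed at 0 in both 7-week pools against 1.43, 5.52 and 11.1 TPM at 5 weeks (adjusted p = 0.299). The 7-month pools were at 8.54 and 7.46 TPM for Ggt1, near the 7-week pools, and at 7.13 and 11.99 TPM for Ggct, near the upper 5-week libraries. Kyat1 (ENSMUSG00000039648), an aminotransferase of the kynurenine pathway, was at 28.7 and 40.4 TPM against 4.73, 7.80 and 24.4 TPM (difference 1.84, SE 0.48, limma adjusted p = 0.511).

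Some genes of class I antigen presentation, picked after their values were seen, lay above the 5-week sets. Nlrc5 (ENSMUSG00000074151), the transactivator of class I histocompatibility genes, was at 2.97 and 5.58 TPM at 7 weeks, and at 5 weeks it was at 0 in all 6 libraries of A3_2 and A3_3 and at 0.05 to 0.29 TPM in A3_1. Its difference was 2.27 (SE 0.35, limma adjusted p = 0.299), with 1.99 and 2.72 within set numbers. Psmb8, the immunoproteasome subunit, was at 5.87 and 5.02 TPM against 0, 0.32 and 4.13 TPM, and Tap1, the peptide transporter, at 1.54 and 3.39 TPM against 0, 0.35 and 1.39 TPM. Both 7-week libraries lay above all 9 libraries of 5 weeks for these 3 genes, as for 3.23% of all tested genes. Nlrc5 had a 5-week mean of 0.087 on the log2 scale, under the filter of 1. It thus passed the filter only through the older pools, and its separation is no support. Psmb8 and Tap1 were also near 0 at 5 weeks, with medians of 0.32 and 0.35 TPM. Psmb8 and Tap1 are outside the 12 largest gaps, and no list of this pathway was counted. The class I heavy chains H2-D1 (45.3 and 60.8 TPM against 14.6 to 58.1 TPM) and H2-K1 (42.7 and 37.1 TPM against 15.2 to 57.6 TPM) overlapped over the 9 libraries but lay above the libraries of their own set number in both numbers.

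Lgals3bp (ENSMUSG00000033880), a secreted glycoprotein that interferon induces, was at 23.5 and 27.4 TPM at 7 weeks against 2.46, 5.87 and 17.5 TPM at 5 weeks (difference 1.83, SE 0.45, limma adjusted p = 0.504). Other interferon targets stood lower: Ifit3 had set values of 12.5, 7.40 and 14.6 TPM at 5 weeks and 6.39 and 2.19 TPM at 7 weeks, and Isg15 had 4.79, 1.58 and 3.69 TPM against 1.21 and 0 TPM. Ifi35 was listed at 0 in both 7-week pools and at 0 to 2.81 TPM at 5 weeks. Of 30 tested genes of the interferon list, none passed the test, 5 lay above and 5 below between sets, and 6 lay above and 1 below within set numbers. The list summed to 438 and 600 TPM at 7 weeks, inside the 335 to 668 TPM of 5 weeks. The 7-month pools had 1785 and 1099 TPM.

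The remaining genes of the higher side have varied roles. Larp1b, a La-related RNA-binding protein, was at 4.44 and 9.65 TPM at 7 weeks against 0, 0.41 and 2.29 TPM at 5 weeks. Cyb5rl, a relative of cytochrome b5 reductase, was at 9.86 and 10.2 TPM against 0, 2.68 and 4.33 TPM. Rnf135, a ubiquitin ligase that activates the viral RNA sensor Ddx58, was at 12.1 and 14.1 TPM against 0.17, 4.67 and 11.2 TPM. For these genes each 7-week pool lay above every 5-week library. The same holds for Rnase1, a secreted ribonuclease, for the chaperone-like Itgb1bp2 and for Ccdc149, with differences of 2.07, 1.90 and 1.95, and their adjusted p-values, like those of the 3 genes before, ran from 0.299 to 0.521.

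On the lower side, 6 of the 12 genes were listed at 0 in both 7-week pools, so they passed the filter only through the other ages. Besides Eno1b and Ggct they were Cldn11, the tight junction protein of myelin; Frrs1, a ferric reductase; Tmem267; and Trim34a, of an interferon-induced family. Cldn11 (ENSMUSG00000037625) was at 0.69, 4.55 and 7.79 TPM at 5 weeks and at 3.40 and 3.18 TPM at 7 months. Frrs1 was at 1.68, 3.39 and 6.97 TPM at 5 weeks and at 4.12 and 2.02 TPM at 7 months, so both genes are listed at 0 only in the 7-week bulk pools among the 13. Raet1d, a ligand of the natural killer receptor NKG2D, was at 0.18 and 0 TPM at 7 weeks against 1.02, 4.87 and 12.2 TPM at 5 weeks.

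Other genes of the lower side were above 0 at both ages. Rp2 (ENSMUSG00000060090), a GTPase-activating protein that serves traffic to the primary cilium, was at 5.34 and 4.18 TPM at 7 weeks against 13.3, 19.7 and 38.8 TPM at 5 weeks, with a difference of -2.02 (SE 0.36, limma adjusted p = 0.299). Spryd7 (ENSMUSG00000021930) was at 3.35 and 3.19 TPM against 7.34, 16.6 and 29.03 TPM (difference -2.02, SE 0.30, limma adjusted p = 0.299). Ndufaf6 (ENSMUSG00000050323), an assembly factor of respiratory complex I, was at 1.99 and 0.63 TPM against 4.97, 13.4 and 18.3 TPM (difference -2.59, SE 0.45, limma adjusted p = 0.299). The 7-month pools were at 20.2 and 10.4 TPM for Rp2, 18.8 and 13.99 TPM for Spryd7 and 20.9 and 40.3 TPM for Ndufaf6, all above both 7-week pools. In 5-week libraries the actin-bundling Pls1 and the histone gene Hist2h3b reached down to 0.19 and 0 TPM in set A3_3, so their 7-week libraries (0.06 and 0.49 TPM, 0.01 and 0 TPM) were not separated from every library.

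**Figure D3:**
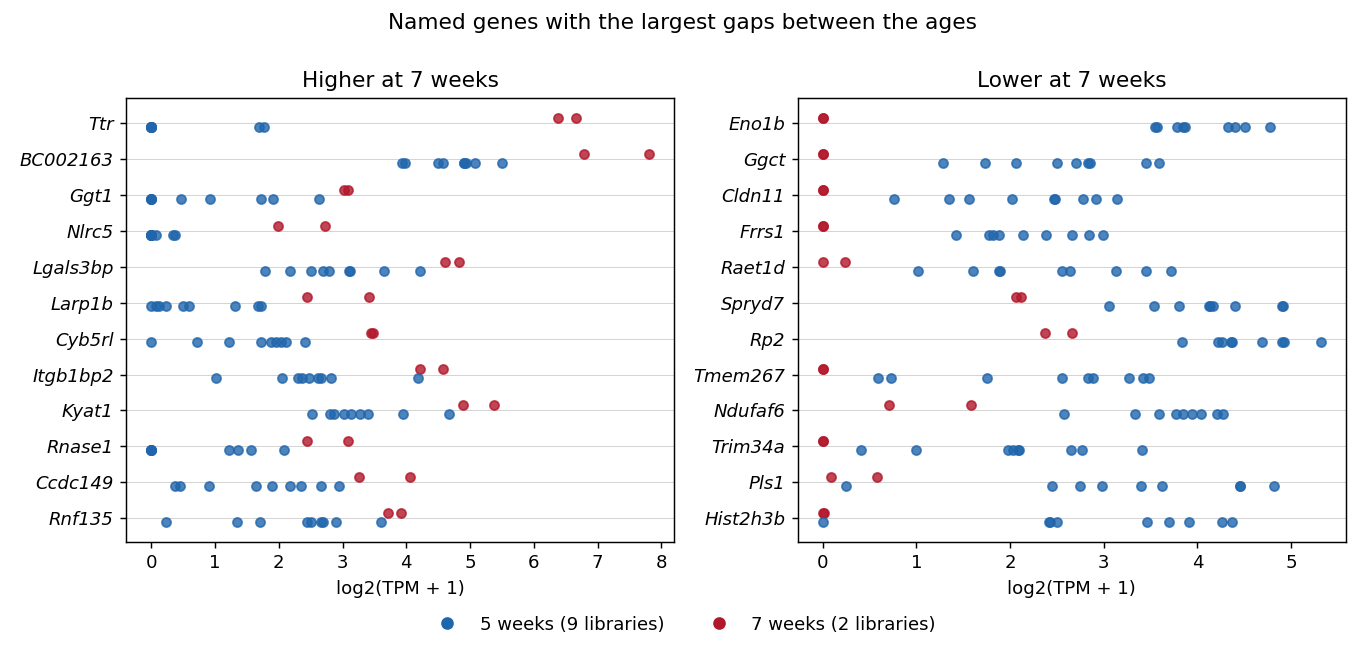
Level as log2(TPM + 1) of the 12 named genes per direction with the largest gap between the ages, in the 9 libraries of 5 weeks (blue) and the 2 of 7 weeks (red). Ttr and Eno1b are far apart (82.4 and 100 TPM against at most 2.42 TPM for Ttr). For Pls1 and Hist2h3b 1 library of 5 weeks reaches the 7-week values. For the other genes the log2 distance between the nearest libraries of the 2 ages runs from 0.033 (Itgb1bp2) to 1.62 (Nlrc5).

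Within set numbers, the 2 age differences rest on different libraries on both sides. Eno1b differed by -3.94 and -4.53 within numbers 2 and 3, and Gm4735 by -3.75 and -3.94. The sign within numbers is fixed for genes whose sets do not overlap, so it adds no support. BC002163 differed by 2.97 and 2.19, and Ggct by -2.42 and -3.09.

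**Figure D4:**
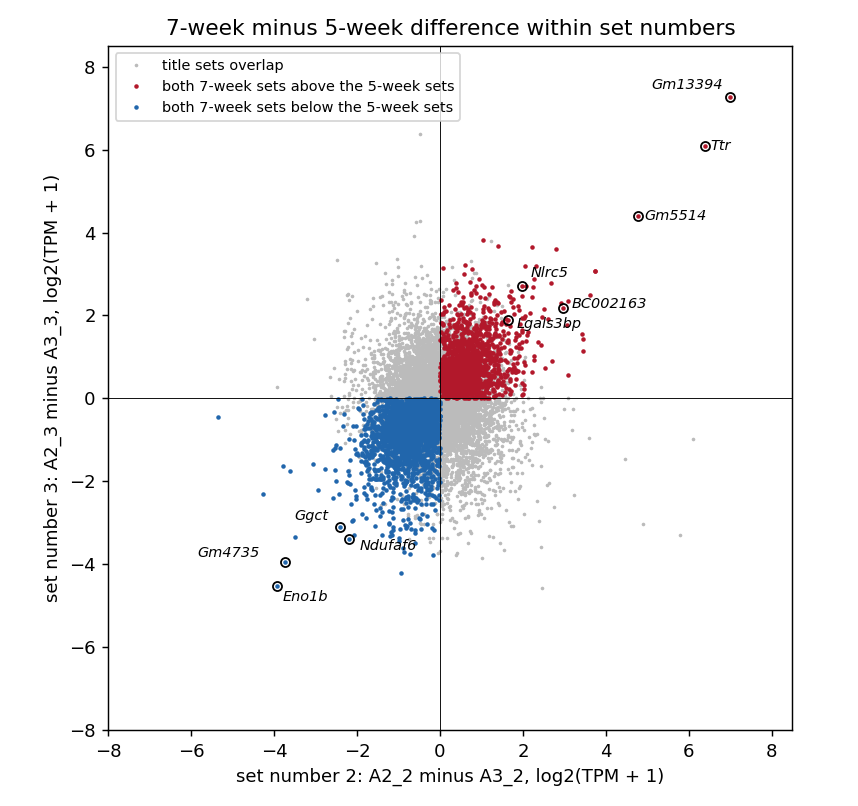
Difference between 7 and 5 weeks on the log2(TPM + 1) scale within set number 2 (horizontal) and set number 3 (vertical), 1 point per tested gene; red and blue points are genes whose 7-week sets both lie above or both below the 3 sets of 5 weeks. Ttr, Gm13394 and Gm5514 stand at the upper right (6.38 and 6.09 for Ttr) and Eno1b and Gm4735 at the lower left (-3.94 and -4.53 for Eno1b).

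Gene lists of cell types and programmes held no called gene other than Ttr (choroid plexus) and Eno1b (glycolysis), so they are described by counts and medians. For reference, over all tested genes 11.4% lay above and 17.3% below between sets, 11.6% and 17.4% within set numbers, and the median difference was -0.07.

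Among genes of astroglia and quiescent stem cells, more members lay above than below. Of 33 tested, 9 lay above and 3 below between sets, 15 and 6 within set numbers, and the median difference was 0.35 (0.16 and 0.27 within numbers). Aldoc, the brain aldolase, was at 1081 and 1483 TPM at 7 weeks against 652, 785 and 917 TPM at 5 weeks (difference 0.71, SE 0.32, limma adjusted p = 0.559). The lipoprotein chaperone Clu was at 1843 and 2502 TPM against 1095 to 1624 TPM, and the neurotensin receptor Ntsr2 at 287 and 351 TPM against 96.6 to 223 TPM. Members on the other side were the acyl-CoA synthetase Acsl3, at 163 and 182 TPM against 231 to 363 TPM, and Hes5, a target of Notch, with 74.0 and 67.9 TPM against set values of 244, 113 and 91.2 TPM. Slc1a3 and Gja1, the astroglial glutamate transporter and connexin, overlapped over all sets, with 636 and 1345 TPM against 950 to 1527 TPM for Slc1a3, but both lay below the libraries of their own set number in both numbers. With the GC content and length trend removed, the astroglial median was 0.20 (0.053 and 0.20 within numbers).

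Genes of the cell cycle mostly had negative differences, as did 7484 of all 13668 genes. Among 42 G2/M genes, 41 had a negative difference, 6 lay below between sets and none above, 23 lay below and 1 above within set numbers, and the median was -0.66 (-0.34 and -0.56 within numbers). Smc2, a condensin subunit, was at 130 and 85.1 TPM at 7 weeks against 192, 317 and 414 TPM at 5 weeks (difference -1.43, SE 0.41, limma adjusted p = 0.511). Among 41 S-phase genes, 7 lay below and none above between sets, 16 and 2 within set numbers, with a median of -0.35. The between-set counts of both lists are at or under the 17.3% of all genes, and the counts within set numbers are above their 17.4%. Cyclin E2 (Ccne2) was at 31.2 and 27.5 TPM against 35.1, 80.6 and 107 TPM, and Slbp, which binds histone mRNA in S phase, at 265 and 198 TPM against 287 to 608 TPM. Mki67, the common proliferation marker, was lower in 1 of the 2 pools only. It was at 148 TPM in A2_2, inside the 92.0 to 149 TPM of 5 weeks, and at 59.3 TPM in A2_3, below that range.

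The summed G2/M level depended on the set number at both ages, with 12680, 11514 and 5837 TPM in A3_1, A3_2 and A3_3 and 9278 and 3689 TPM in A2_2 and A2_3. Within the same number the 7-week pools were thus lower, and A2_2 was still above A3_3. Of 19 genes of activated stem cells and transit-amplifying progenitors, 11 had a negative difference, and 9 lay below and 1 above within set numbers, among them Sp8 (48.8 and 128 TPM at 7 weeks against 166 and 201 TPM in A3_2 and A3_3) and Rrm2, a ribonucleotide reductase subunit (835 and 417 TPM against 1679 and 835 TPM). Between all sets only Cdk6, a G1 kinase, lay below, and Sp8 overlapped, with 10.99 TPM in A3_1. Sox2, the stem cell factor, was at 80.6 and 80.9 TPM at 7 weeks, below all 9 libraries of 5 weeks (105 to 141 TPM, difference -0.59, SE 0.30, limma adjusted p = 0.593). In the labelled single cells Sox2 ran the other way. Its mean was 63.2 TPM over 39 cells of 7 weeks and 24.7 TPM over 48 cells of 5 weeks.

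The reading of the neuroblast genes depended on set A3_1. Over 20 genes the median difference was 0.69 with all sets, -0.06 without A3_1, and 0.00 and 0.12 within set numbers 2 and 3. The list summed to 11871 and 16283 TPM at 7 weeks and to 5091, 10915 and 14053 TPM in A3_1, A3_2 and A3_3. Stmn1, Igfbpl1 and Elavl4 lay above all 3 sets of 5 weeks, with Stmn1, a regulator of microtubules, at 7939 and 8259 TPM against 3577 to 7058 TPM. Dcx, Nrxn3 and Sox4 lay below their own set number in both numbers, with 55.1 TPM in A2_2 against 104 TPM in A3_2 and 155 TPM in A2_3 against 249 TPM in A3_3 for Dcx.

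Myelin genes were low at both ages and mostly had negative differences. Of 11 tested oligodendrocyte genes, 10 had a negative difference, 3 lay below between sets and 5 within set numbers, none lay above, and the median was -0.67 (-0.81 and -1.73, or -0.37 and -1.36 with the GC content and length trend removed). Mobp, a basic protein of compact myelin, was listed at 0 in both 7-week pools against 0.16, 2.93 and 6.28 TPM at 5 weeks (limma adjusted p = 0.517). Mbp overlapped, with 6.38 and 2.91 TPM against 2.16 to 26.2 TPM. The summed list was 87.7 and 129 TPM at 7 weeks against 137 to 394 TPM at 5 weeks, so the ages do not overlap in this sum.

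Markers of other cell types were low in both ages. The microglial list summed to 56.2 and 179 TPM against 48.4 to 183 TPM, the endothelial list to 44.0 and 36.7 TPM against 22.9 to 61.5 TPM, and the ependymal list to 168 and 118 TPM against 110 to 300 TPM. Haemoglobin and other erythroid genes summed to 577 TPM in A2_2, 0 TPM in A2_3 and 11.8 to 25.3 TPM at 5 weeks. The part of red cell RNA in the values of A2_2 was not tested.

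Protein synthesis genes split by role. Of 79 cytosolic ribosomal protein genes, 28 lay above and 2 below between sets and 40 above and 1 below within set numbers, with a median of 0.30 (0.57 and 0.17). Rpl7 was at 2251 and 2199 TPM at 7 weeks against 1476, 1600 and 1722 TPM at 5 weeks. The member on the other side in both counts was Rps27l, a p53-responsive relative, at 290 and 206 TPM against 262 to 478 TPM. With the trend on GC content and length removed, the median was 0.19, and 0.33 and -0.02 within set numbers. The list took 10.1% of all TPM in A2_2, 6.85% in A2_3 and 5.96 to 7.55% at 5 weeks, so the larger shift belongs to 1 pool.

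Among splicing factors more members lay below than above, with 12 of 44 below and 2 above between sets and 16 and 1 within set numbers. Srsf10 was at 209 and 222 TPM at 7 weeks against 324, 397 and 631 TPM at 5 weeks (difference -0.97, SE 0.31, limma adjusted p = 0.513), and Hnrnpa2b1 at 845 and 981 TPM against 1448 to 1822 TPM. The median difference was -0.12, and -0.01 with the GC content and length trend removed, and these transcripts had a median GC content of 45.0%.

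Respiratory chain genes stood on both sides. Of 75 nuclear genes of oxidative phosphorylation, 22 lay above and 10 below between sets and 26 and 10 within set numbers, with Uqcrh of complex III at 907 and 893 TPM against 449 to 650 TPM and cytochrome c (Cycs) at set values of 72.2 and 66.0 TPM against 101, 118 and 96.9 TPM. Their median of 0.14 was -0.02 with the GC content and length trend removed. Of 13 mitochondrially encoded genes, 5 lay above and none below between sets and 6 and 1 within set numbers, with mt-Co2 at 7499 and 8554 TPM against 4409 to 6687 TPM. Their median of 0.33 was 0.67 with that trend removed. Of 22 glycolysis genes, 5 lay above and 2 below between sets and 8 and 2 within set numbers, with a median of 0.27, or 0.12 with the trend removed. Of 30 lysosomal genes, 8 lay above and 4 below between sets and 12 and 5 within set numbers, among them the lysosomal hydrolases Hexa and Ctsl on the higher side.

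Several chaperones of the endoplasmic reticulum and the cytosol lay below the 5-week sets. Of 27 tested genes of the heat shock and unfolded protein response, 11 lay below and 3 above between sets, 10 and 2 within set numbers, and 7 below and 1 above all 9 libraries, with a median of -0.27 (-0.27 and -0.09). Hspa5, the master chaperone of the endoplasmic reticulum, was at 394 and 524 TPM at 7 weeks against 623, 706 and 802 TPM at 5 weeks and 937 and 1190 TPM at 7 months (7-week difference -0.66, SE 0.31, limma adjusted p = 0.570). Canx, the membrane chaperone of glycoproteins, was at 212 and 280 TPM against 325, 376 and 485 TPM at 5 weeks (difference -0.66, SE 0.31, limma adjusted p = 0.570). The disulfide isomerase Pdia3 was at 214 and 227 TPM against 320 to 582 TPM. Members on the higher side were the stress transcription factors Atf4 (453 and 387 TPM against set values of 269, 321 and 348 TPM) and Ddit3, and the cytosolic chaperone Hsp90ab1.

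The unfolded protein response acts through an element in promoters, the endoplasmic reticulum stress element, which reads CCAAT, any 9 bases, then CCACG. It was searched on both strands of the 250 bases before each RefSeq start on build GRCm38.p6, and other motifs that overlap it, such as the CCAAT box inside it, were not counted apart. It was found in 37 of 32851 windows (0.113%) and in 6 of the 23 list genes that had a window: Calr, Canx, Creld2, Hsp90b1, Hspa5 and Pdia6. Of these 6, Canx, Hsp90b1 and Hspa5 lay below between sets, and Calr, Creld2 and Pdia6 overlapped. The windows of Hspa5 (chr2:34771840-34772089, plus strand) and Canx (chr11:50325674-50325923, minus strand) are shown 5′ to 3′ because both genes lay below within both set numbers, with the element in capitals, at bases 65 to 47 and 145 to 127 before the start.

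Hspa5: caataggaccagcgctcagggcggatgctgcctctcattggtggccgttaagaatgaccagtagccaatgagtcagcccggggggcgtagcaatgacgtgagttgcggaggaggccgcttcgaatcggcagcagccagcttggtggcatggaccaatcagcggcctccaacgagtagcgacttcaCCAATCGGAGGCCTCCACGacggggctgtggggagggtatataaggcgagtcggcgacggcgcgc
Canx: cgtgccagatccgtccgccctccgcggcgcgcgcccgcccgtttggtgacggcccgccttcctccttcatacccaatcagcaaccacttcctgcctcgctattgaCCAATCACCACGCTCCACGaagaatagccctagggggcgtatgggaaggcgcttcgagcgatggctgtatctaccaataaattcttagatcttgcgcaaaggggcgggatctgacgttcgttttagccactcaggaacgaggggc

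A match describes the letters only, and the genes that hold it did not all stand on the same side.

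Signalling lists gave smaller counts. Of 22 Notch pathway genes, 4 lay above and 5 below between sets and 5 above and 3 below within set numbers, with the receptor Notch2 at 8.85 and 8.18 TPM at 7 weeks against 15.2, 20.1 and 56.0 TPM at 5 weeks. Of 25 Wnt pathway genes, 3 lay above and none below between sets, near the share of all genes, and 3 above and 4 below within set numbers. Their differences were negative in 17 of 25, with a median of -0.21. The receptor Fzd2, 1 of the 3, was at 37.2 and 34.95 TPM against 15.8 to 28.5 TPM. Immediate early genes also stood on both sides: Junb was at 36.4 and 38.2 TPM against 1.13, 10.3 and 25.5 TPM (difference 1.84, SE 0.58, limma adjusted p = 0.513), while Klf6 had set values of 30.1 and 34.2 TPM against 45.6, 66.0 and 75.0 TPM. None of these genes passed the test.

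**Figure D5:**
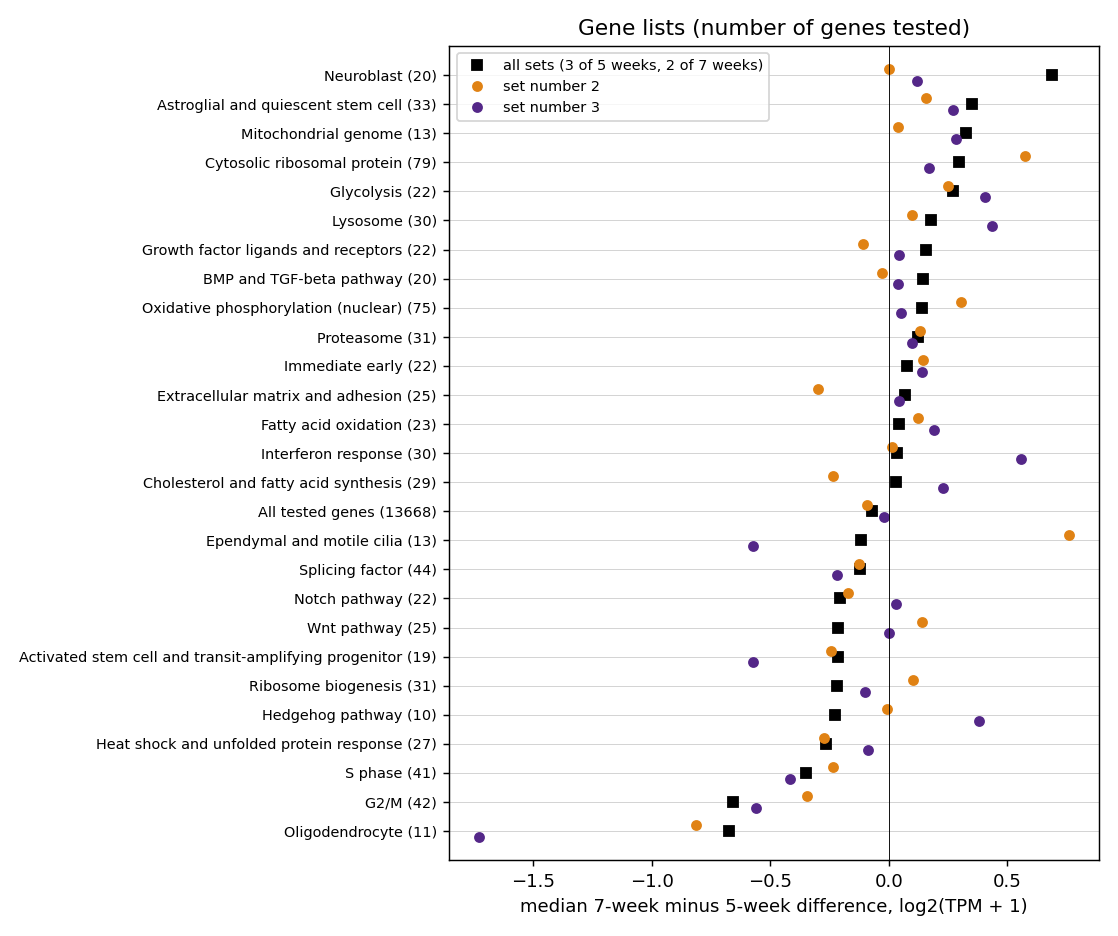
Median 7-week minus 5-week difference on the log2(TPM + 1) scale for each gene list with at least 10 tested genes, over all title sets (squares) and within set numbers 2 and 3 (points), beside all 13668 tested genes. The G2/M, S-phase and oligodendrocyte medians are below 0 in all 3 readings, the astroglial, ribosomal protein and glycolysis medians are above 0 in all 3, and the neuroblast median is 0.69 over all sets and 0.00 and 0.12 within numbers.

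The single cells of the same ages, with A2_1 among their title sets, followed the order of the pools in some genes only. Mean Nr2e1 was 354, 91.7 and 46.8 TPM over the cells of A3_1, A3_2 and A3_3 and 196, 85.3 and 73.1 TPM over those of A2_1, A2_2 and A2_3. Mean gfp was 271, 154 and 34.2 TPM at 5 weeks and 144, 146 and 0.25 TPM at 7 weeks, with no step down from A2_1 to A2_2. The neuroblast list had mean log2(TPM + 1) levels of 1.84, 3.34 and 4.85 in the 5-week sets and 1.49, 2.37 and 2.64 in the 7-week sets. The astroglial list was at 2.82 and 2.67 in cells of A3_2 and A3_3 and at 4.24 and 4.82 in those of A2_2 and A2_3, and the G2/M list at 3.14 and 2.03 against 1.57 and 0.65. In A3_1 the G2/M list was at 2.43, below A3_2, whereas the pools of A3_1 had the highest sum. The cells also differ in the share labelled active stem cells, 72.2% and 61.1% in A3_2 and A3_3 and 41.7% and 33.3% in A2_2 and A2_3, and the part of that share in the bulk differences was not tested.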

How the data were processed

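The authors deposited TPM values for 37621 rows and 144 libraries, made with RSEM 1.2.15 on build mm9, per the submitters' processing notes. Per the labels' protocols, cDNA came from a SMARTer Ultra Low Input kit. The annotation used is not given in the sources used here, and TPM keeps no read depth. Groups came from the labelled age and title. Values were used as log2(TPM + 1), averaged within title sets. Genes with a mean of at least 1 over the 7 bulk sets were tested with limma 3.58.1 in R 4.3.3, with 3 ages sharing the spread, two-sided, Benjamini-Hochberg threshold 0.05. Symbols were found for 32897 rows. The members, the 34 gene lists and the alternatives were chosen with earlier results of these data known. The named genes were those past the threshold, the 12 largest gaps per direction (no predicted models), up to 4 members of each list per direction, and a panel; some of these are not reported here. On simulated data for 13668 genes, the fit called 51.5% of log2 changes of 2 and 100% of those of 4 or 6. Copies were aligned with blastn 2.17.0. Of 88 labelled cells, 1 pair with a correlation of 0.992 was counted as 1 cell. The labelled active share uses aNSC labels.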

Additional observations from a re-analysis of the deposited data

Results flagged for a closer look

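Among 48 named genes, 1 value stood apart from its group by Dixon's criterion, which chance meets in about 1 of 20 groups. The histone gene Hist2h3b was at 0 TPM in library A3_3_R2, while the other 8 libraries of 5 weeks ran from 4.35 to 19.6 TPM. The gap took 0.554 of the range on the log2(TPM + 1) scale. The other libraries of set A3_3 were at 4.35 and 4.66 TPM, so this set was the lowest of the 3 also without it.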

How the results depend on the processing

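The 5 genes past the threshold in the limma fit became 8 with a pseudocount of 0.1, 3 with a filter at a mean of 3, 1 with only the R1 library of each set, 2 with only the sets of 5 and 7 weeks in the fit, and 3 on the log2 of the mean TPM without set A3_1, and the cause was not tested. Leaving out a set gave 0 to 3 genes, where a lone 7-week set was assumed to vary like the other ages. With the set number as a replicate block there were 0 (1334 at an unadjusted p under 0.05), and with the block and the GC content and length trend removed 0 (989). The sets share only a number: with 2 pairs, deviations from the age means correlated at 0.07 and 0.39. The other 7 settings gave 4 to 6 genes. Ttr and Gm5514 passed in 13 of 19 alternatives each, with adjusted p up to 0.0958. The 3925 genes whose sets do not overlap became 4682 to 9273 when a set was left out, with 9273 without A2_2 and 8244 without A2_3.

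Among 48 named genes, 803 alternative values kept direction and call, 38 changed sign, 43 lost and 4 gained the call (Nlrc5, Ggct, Cldn11 and Frrs1, once each). None of the genes that changed sign passed the test. With 1 set left out, the log2 differences ranged as gfp (-1.95 to 0.011), Gfap (-0.65 to 0.71), Slc1a3 (-1.02 to 0.062), Gja1 (-1.04 to 0.12), Aqp4 (-0.59 to 1.40), Nes (-0.965 to 0.29), Dlx2 (-0.35 to 0.37), Mki67 (-1.01 to 0.29), Top2a (-1.53 to 0.094), Dcx (-0.79 to 1.16), Cd24a (-0.10 to 1.87), Pdgfra (-1.29 to 1.92), Ddx3y (-1.01 to 0.16). With the replicate block, signs changed for Gfap (0.25), Aqp4 (-0.23), Dlx2 (-0.077), Dcx (-0.63), Pdgfra (-0.66), and with the GC content and length trend removed for Dlx2 (-0.16), Ddx3y (0.076). With the block and that trend removed, they changed for Gfap (0.052), Egfr (0.13), Dlx2 (-0.355), Mki67 (0.076), Dcx (-0.21), Pdgfra (-0.53), Ddx3y (0.028). On the log2 of the mean TPM without A3_1, they changed for Gfap (0.65), Aqp4 (-0.39), Dlx2 (-0.35), Dcx (-0.80), Cd24a (-0.10), Pdgfra (-0.66). The alternatives on GC content and length and on the mean TPM without A3_1 were chosen after seeing the data. Read depth is unknown, so a level listed at 0 TPM has no upper limit.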
